A study of Mus musculus with 4 samples.

Results

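Guanylate-binding proteins (GBPs) and immunity-related GTPases (IRGs) are enzymes that interferons induce in mouse cells. Interferon-γ acts through IRF1 among other factors, and type I interferon through STAT2 and IRF9 among others, to switch on their genes. The proteins assemble on the vacuoles of intracellular pathogens and on damaged membranes, which the autophagy conjugation machinery helps to mark, and several GBPs feed into inflammasome activation. Here 10 of these genes, out of 32285 in the count files, were followed in scRNA-seq data of mouse draining lymph nodes. They were chosen by name, but with earlier results of these data known. The GBP genes are Gbp2, Gbp3, Gbp5 and Gbp7 of chromosome 3 and Gbp4, Gbp6, Gbp8 and Gbp9 of chromosome 5. The IRG genes are Irgm1 and Igtp of chromosome 11. All 10 were present in every file.

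The study asked how extracellular vesicles (EVs) of human induced pluripotent stem cells (iPSCs) affect immune cells of the node that drains the injection site. Both groups were wildtype C57BL/6 mice, and the EV group received 100 μg of iPSC EVs under the skin. The control group received PBS according to the methods, whereas the labels call these mice untreated. The nodes were taken on day 5 by the design text, but the labels give 24 h for all libraries. There were 2 libraries per group, described in the methods as biological replicates, and neither the age of the mice nor the number behind each library is given in the sources used here.

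The libraries held between 50749656 and 70418672 unique molecular identifiers (UMIs, each standing for 1 captured mRNA molecule), and between 7891 and 8529 cells per library passed the filters. A total of 105 of 32620 different barcodes occurred in more than 1 library. Cells were sorted in silico by UMIs of lineage genes into B cells (between 2503 and 4866 per library), CD4 T cells (923 to 1624), CD8 T cells (1003 to 1861) and macrophages (42 to 91). B cells made up 37.05% and 31.72% of the cells kept in controls against 59.60% and 50.43% in EV libraries. CD4 T cells made up 16.99% and 20.58% against 11.31% and 14.86%, and CD8 T cells 20.66% and 23.58% against 12.29% and 15.89%. The macrophage shares overlapped between groups. The part of these shares in the EV differences was not tested. Without the genes that define the gates, the summed B cell markers reached between 10186 and 11916 counts-per-million (CPM, UMIs relative to all UMIs of the gate) in the B cell gate and no more than 40.7 in the T cell gates, and the T cell markers between 4415 and 5446 CPM in the T cell gates and at most 111 in B cells. Within the B cell gate the T cell markers stood at 111 and 94.3 CPM in controls against 53.0 and 56.2 in EV libraries. Their part in the B cell values was not tested. The macrophage gate was less clean. Its 8 macrophage markers other than the gate genes summed to between 1876 and 2827 CPM and none of them was at 0 in all libraries, but the B cell markers reached 2841 and 2463 CPM in controls, against 4711 and 5498 CPM in the EV libraries. Between 11.9% and 23.9% of its cells also met the B cell gate, and its cells held a median of 1100 to 1456 UMIs, 0.170 to 0.219 of the library medians. Plasmacytoid dendritic cell markers in this gate summed to 128.5 and 944 CPM in controls against 63.1 and 345 in EV libraries. NK cell markers summed to 14.3 and 401 CPM against 0 and 0, and monocyte markers to between 28.6 and 418 CPM. Lymphocytes in EV libraries were also more deeply covered, with a median of 5615 and 5811 UMIs per B cell against 4142 and 4905 in controls.

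The promoters of 6 of the genes could be read from RefSeq (GRCm38.p6), as 7 windows from 250 bases before to 50 bases after a start site. Each of the 6 genes had a window with the core of the interferon-stimulated response element (ISRE), GAAANNGAAA on either strand, the sequence read by IRF9 and other IRFs, and the second window of Gbp3 held no match. Of all 32851 promoter windows of this length, 3.44% held it. The stretches of 30 bases around these matches are shown on the strand of the gene because they are the feature that these members share at the level of DNA. Capitals mark the ISRE core (TTTCNNTTTC where the match is on the opposite strand) and, for Igtp, also the adjoining TTCNNNGAA, the palindrome of the gamma-activated sequence (GAS).
Gbp2, chr3:142620594-142620623, plus strand: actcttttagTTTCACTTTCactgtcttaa
Gbp3, chr3:142559992-142560021, plus strand: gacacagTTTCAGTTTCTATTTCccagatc
Gbp5, chr3:142496759-142496788, plus strand: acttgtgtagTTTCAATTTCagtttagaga
Gbp7, chr3:142530273-142530302, plus strand: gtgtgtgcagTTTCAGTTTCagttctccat
Irgm1, chr11:48871428-48871457, minus strand: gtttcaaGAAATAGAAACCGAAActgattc
Igtp, chr11:58199507-58199536, plus strand: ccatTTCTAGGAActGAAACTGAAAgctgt
The match began between 30 (Irgm1) and 165 bases (Gbp5) before the RefSeq start site. The gene positions given below are from GENCODE, and by these the matches of Gbp2, Gbp5 and Irgm1 lie inside the gene. Gbp3 and Irgm1 each held 2 overlapping matches. GAS matches occurred in the windows of 3 members, Gbp5, Gbp7 and Igtp, against 8.3% of all promoters. A match is a description of the letters and was not examined for binding.

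Before treatment was considered, the cell types differed in which of the GTPases they held. Levels of the genes are given in CPM after TMM normalisation within each cell type, as the range over the 4 libraries, and the ratio between cell types comes from a joint edgeR quasi-likelihood fit with library as a block, in which adjusted p is over all genes tested. Between B and CD4 T cells 9 of 10 members were called, 2 higher in B cells and 7 lower, in a comparison that called 69.1% of all genes (34.8% higher in B cells and 34.2% lower). Between B and CD8 T cells all 10 were called, with the same 2 members higher in B cells and 8 lower, against 72.9% of all genes (37.1% and 35.9%). CD4 T cells had lower levels than CD8 T cells for 8 of 10 members, where 40.9% of all genes were called (20.6% in this direction and 20.3% in the other).

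Gbp3 (chr3:142560026-142573209) and Gbp5 (chr3:142493978-142522344), the latter a GBP that promotes NLRP3 inflammasome assembly, were the members with higher levels in B cells. Gbp3 ranged from 11.2 to 17.2 CPM in B cells, from 4.45 to 6.27 in CD4 T cells and from 6.84 to 9.17 in CD8 T cells. No B cell library overlapped with any T cell library, and B cells exceeded CD4 T cells 2.60-fold (adjusted p = 4.2e-08). Gbp5 ranged from 20.2 to 22.5 CPM in B cells, 11.98 to 19.6 in CD4 T cells and 14.3 to 19.0 in CD8 T cells. The B cell levels were 1.36-fold those of CD4 T cells (adjusted p = 0.00010) and 1.17-fold those of CD8 T cells (adjusted p = 0.0047). With cells thinned to 1000 UMIs the Gbp5 call against CD8 T cells was lost (log2 ratio 0.09 ± 0.17, adjusted p = 0.67).

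The other chromosome 3 members, Gbp2 (chr3:142620602-142638008), a GBP that loads onto Toxoplasma vacuoles, and Gbp7 (chr3:142530342-142550149), ran the other way. Gbp7 shares 637 exonic bases, 11.3% of its own, with Gm43802, a processed pseudogene on the same strand. That pseudogene is absent from the count files, and how reads from the shared bases were counted was not examined. Gbp2 lay between 5.23 and 6.94 CPM in B cells, 20.5 and 30.1 in CD4 T cells and 28.3 and 38.7 in CD8 T cells. Gbp7 lay between 9.42 and 11.5 CPM in B cells, 47.4 and 63.0 in CD4 T cells and 52.9 and 72.6 in CD8 T cells. B cells were thus 4.29-fold lower than CD4 T cells for Gbp2 (adjusted p = 1.5e-11) and 5.49-fold lower for Gbp7 (adjusted p = 5.8e-13). Within T cells, CD4 levels were 1.33-fold lower than CD8 levels for Gbp2 (adjusted p = 7.0e-05) and 1.15-fold lower for Gbp7 (adjusted p = 0.0013).

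On chromosome 5, Gbp4 (chr5:105115767-105139586), Gbp8 (chr5:105014150-105139540) and Gbp9 (chr5:105077630-105139539) lie on 1 strand and have 60 or 61 exonic bases in common. Their 5′ ends on this minus strand lie close together and their 3′ ends far apart, and the libraries were made with a 3′ kit. How reads from the shared bases were counted was not examined. Gbp6 (chr5:105270702-105293698) shares none with them, but 29% of its exonic bases overlap Gm43302, a gene model on the same strand that is absent from the count files. Gbp6 showed the widest separation of any member, with 0.883 to 1.72 CPM in B cells, 15.3 to 17.2 in CD4 T cells and 18.1 to 24.7 in CD8 T cells. That put B cells 14.3-fold below CD4 T cells (adjusted p = 6.2e-12) and 18.9-fold below CD8 T cells (adjusted p = 6.7e-14). Gbp8 was 4.23-fold lower in B cells than in CD4 T cells (13.03 to 14.4 against 52.9 to 62.1 CPM, adjusted p = 2.9e-13), and Gbp4 2.89-fold lower (18.5 to 19.5 against 49.1 to 57.3 CPM, adjusted p = 4.5e-12). Gbp9 ranged from 19.9 to 24.3 CPM in B cells and 20.5 to 26.2 in CD4 T cells, and these ranges overlapped (log2 ratio -0.09 ± 0.07 SE, adjusted p = 0.23), while CD8 T cells, at 29.2 to 33.7 CPM, lay above both (B against CD8 adjusted p = 6.8e-07).

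Of the IRG genes, Irgm1 (chr11:48861968-48871683) and Igtp (chr11:58199556-58207591, also known as Irgm3) encode regulatory IRGs that sit on host membranes and restrain the effector IRGs. Igtp shares 162 exonic bases, 8.01% of its own, with Irgm2 on the same strand, which is in the count files. How reads from these bases were counted was not examined. Irgm1 had the smallest called ratio between B and CD4 T cells, at 25.2 to 39.9 CPM in B cells, 36.0 to 51.5 in CD4 T cells and 39.1 to 42.3 in CD8 T cells, with B cells 1.33-fold below CD4 T cells (adjusted p = 3.8e-05). Igtp spanned 8.52 to 15.8 CPM in B cells, 42.0 to 59.3 in CD4 T cells and 41.8 to 62.8 in CD8 T cells, 4.29-fold lower in B than in CD4 T cells (adjusted p = 7.8e-13). Neither IRG gene passed the test between CD4 and CD8 T cells (log2 ratio -0.10 ± 0.07 SE for Irgm1 and -0.09 ± 0.04 for Igtp). Of the 8 GBP calls between the T cell types, Gbp5 lost its call without Control 1 (adjusted p = 0.13), Control 2 (0.11) or EV 2 (0.25), and Gbp4 without EV 2 (0.098). Stricter gates also ended the calls of Gbp5 (0.067) and Gbp4 (0.082), and thinning to 1000 UMIs those of Gbp3 (0.12), Gbp7 (0.15), Gbp5 (0.27) and Gbp4 (0.80). The adjusted p had ranges over all alternatives of 0.025 to 0.27 for Gbp5 and 0.00014 to 0.80 for Gbp4; the GBP levels of CD4 T cells stayed below those of CD8 T cells in each of these fits.

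**Figure D1:**
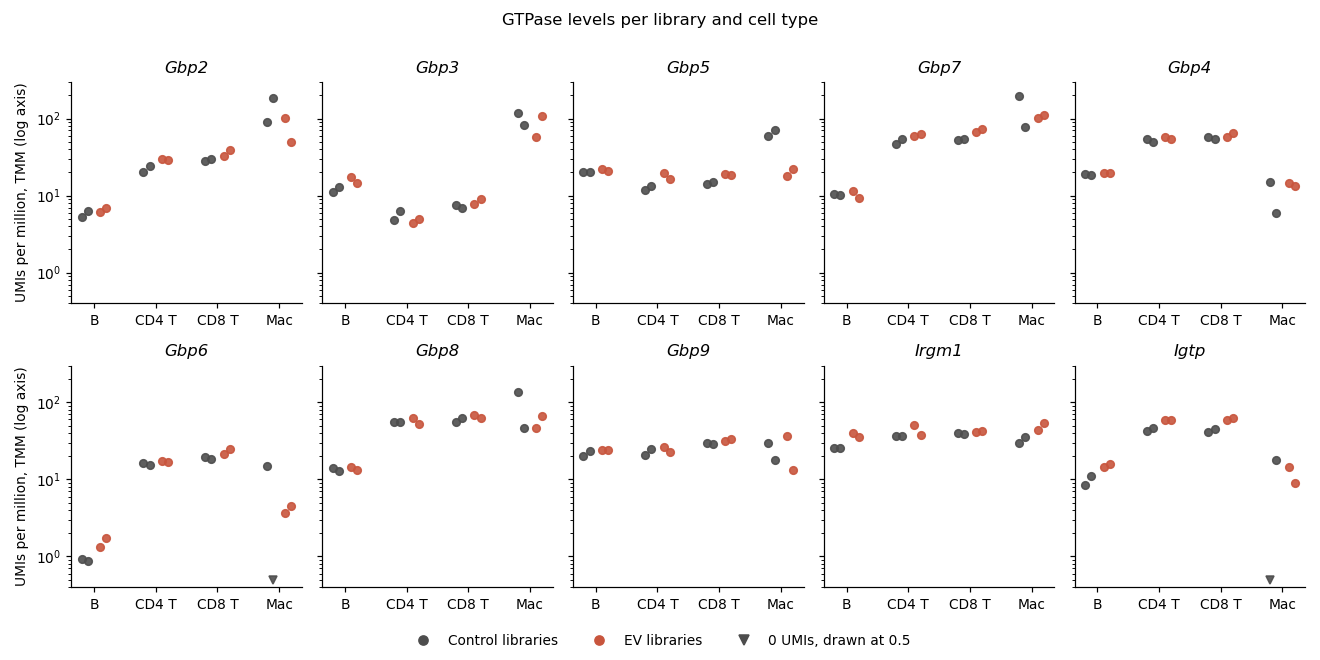
Level of each GTPase gene in CPM (TMM-normalised within a cell type, log axis) in B cells, both T cell types and the macrophage gate (Mac). Each point is 1 library, grey for control and red for EV, and triangles mark libraries with 0 UMIs, drawn at 0.5. Gbp3 and Gbp5 sit higher in B cells than in T cells, Gbp6 lies near 1 in B cells and above 15 in T cells, and the macrophage points scatter widely.

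The macrophage gate rested on few molecules, between 70039 and 269393 UMIs per library against 8017590 to 31173989 in the lymphocyte gates. In the comparisons with it the median over all genes was itself shifted towards the lymphocytes, by 0.39 to 0.45 on the log2 scale, so member differences are given relative to that median. The adjusted p values beside them are those of the unshifted ratios, and the shifted differences were not tested. Macrophages had higher levels than B cells for 4 of 10 members, where 28.9% of all genes were called (12.5% higher in macrophages and 16.4% lower). Gbp2 stood 4.45 above B cells on the log2 scale (49.1 to 183 CPM, adjusted p = 1.3e-20), Gbp7 3.83 (76.6 to 194 CPM, adjusted p = 1.8e-19), Gbp3 3.06 (57.8 to 119 CPM, adjusted p = 1.3e-11) and Gbp8 2.66 (47.0 to 134 CPM, adjusted p = 3.6e-07). The macrophage libraries lay above all B cell libraries for each of these members. With cells that met both gates and all B cells with any UMI of C1qa or C1qb left out, 4 members were still called, against 34.4% of all genes. Thinning to 1000 UMIs left 3 of 9, against 23.1% of all genes. Gbp8 then lost its call (unshifted log2 ratio of B cells to macrophages -1.40 ± 1.05, edgeR adjusted p = 0.35).

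Against CD4 T cells 7 members were called (34.9% of all genes), 4 higher in macrophages (14.5%) and 3 lower (20.4%). Against CD8 T cells 6 members were called (33.4% of all genes), 3 higher in macrophages (14.4%) and 3 lower (19%). Gbp3 was 4.33 above CD4 T cells on the log2 scale relative to all genes (adjusted p = 1.3e-19) and Gbp2 2.25 (adjusted p = 6.1e-09). Gbp4 was lower in macrophages than in CD4 T cells by 2.03 (9 UMIs in all macrophages, adjusted p = 3.8e-06) and Igtp by 1.82 (9 UMIs, adjusted p = 1.3e-05). Gbp6 had 3 UMIs in all macrophages, so no fold is given for it. With cells that met both gates left out, Gbp5 (edgeR adjusted p = 0.12) and Gbp6 (0.27) lost their calls against CD4 T cells. Gbp6 (0.12) also lost its call against CD8 T cells. In this setting 34% and 33.2% of all genes were called against CD4 and CD8 T cells. Leaving out single libraries reduced the calls against CD4 T cells to as few as 4 of 10 (without EV 1 or without EV 2). The share of all genes called fell as well, to 21.4% without EV 1 and 22.1% without EV 2. The members that lost their calls were Gbp5, Gbp6 and Gbp7, whose adjusted p then lay at 0.18, 0.20 and 0.061 without EV 1 and at 0.29, 0.15 and 0.058 without EV 2, and Gbp5 and Gbp6 also lost their calls without Control 2 (0.19 and 0.26) and Gbp7 without Control 1 (0.14). Against CD8 T cells 5 members were called without Control 1 or without Control 2 and 4 without EV 1 or EV 2, with Gbp7 lost without Control 1, EV 1 or EV 2 (adjusted p = 0.34, 0.17 and 0.13) and Gbp6 without Control 2, EV 1 or EV 2 (0.11, 0.052 and 0.056). The share of all genes called there was 30.1% without Control 1 and 23.9% without Control 2. It was 21.6% without EV 1 and 22.7% without EV 2.

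**Figure D2:**
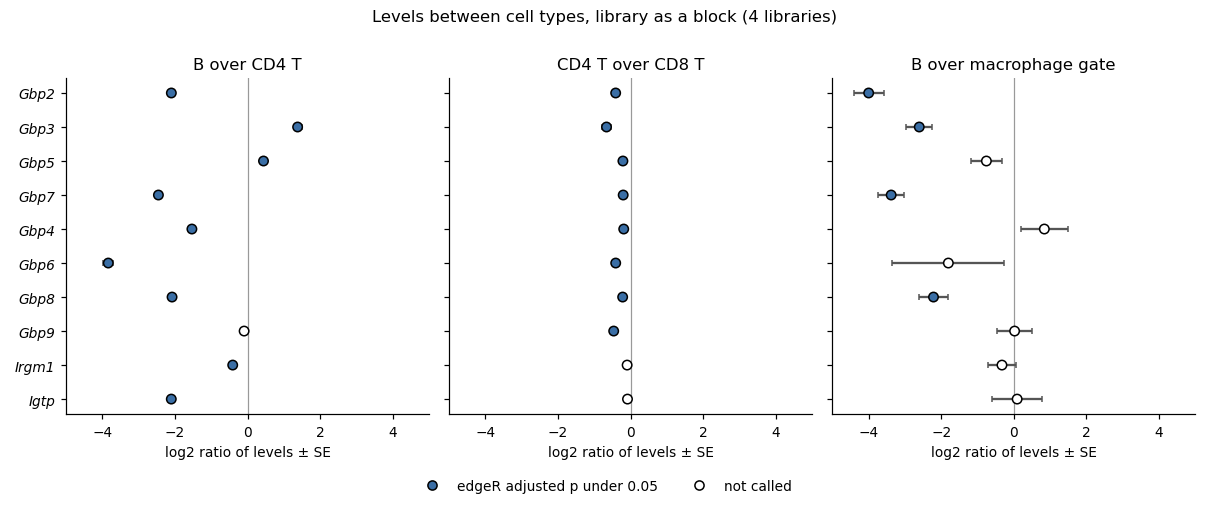
Log2 ratio of levels between cell types for each GTPase gene, with standard error, from the joint fit over 4 libraries with library as a block. Filled points passed an edgeR adjusted p of 0.05 and open points did not. B cells are lower than CD4 T cells for 7 members and higher for Gbp3 and Gbp5, CD4 T cells are lower than CD8 T cells by small amounts, and the ratios to the macrophage gate, drawn before subtracting the all-gene median of 0.45, carry wide errors.

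The question of the study was whether the EVs changed these cells. In B cells 1 of the 10 GTPases was called, Irgm1, and it rose; 2.55% of 13270 genes were called, 1.57% as higher in EV. Irgm1 measured 25.2 and 25.7 CPM in controls against 39.9 and 35.8 CPM after EV treatment. Both EV libraries lay well above both controls, which differed little from each other. The log2 difference was 0.57 ± 0.10 (SE, n = 2 libraries per group, edgeR adjusted p = 0.023). With cells thinned to 1000 UMIs it was 0.48 ± 0.16 and not called (edgeR adjusted p = 0.11). Without Control 1 the adjusted p was 0.14 and without Control 2 it was 0.12, within a range of 2.0e-06 to 0.14 over all alternatives.

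The remaining B cell differences were above 0 and did not pass the test. Igtp measured 8.52 and 11.2 CPM in controls and 14.6 and 15.8 CPM in EV libraries (log2 difference 0.62 ± 0.15, edgeR adjusted p = 0.071). Gbp3 measured 11.2 and 12.8 CPM against 17.2 and 14.7 (0.41 ± 0.13, edgeR adjusted p = 0.15). Igtp would be called without EV 1 or EV 2 (edgeR adjusted p = 0.00073 and 0.044) and Gbp3 without EV 2 (0.028), in fits where the lone EV library was assumed to vary like the others and where 19.6% (without EV 1) and 7.18% of all genes (without EV 2) were called, and the alternatives gave adjusted p from 0.00024 to 0.41 for Igtp and 0.024 to 0.81 for Gbp3. At an unadjusted p below 0.05 stood 3 members, against 18.9% of all genes. Gbp6 measured 0.93 and 0.88 CPM in controls and 1.34 and 1.72 in EV libraries (0.74 ± 0.36, edgeR adjusted p = 0.30), while the differences of Gbp2 and Gbp9 were 0.18 and 0.17. The lowest differences were those of Gbp8 (0.02), Gbp7 (0.03), Gbp4 (0.06) and Gbp5 (0.08). Over the 10 members the median log2 difference was 0.17, against 0.00 over all genes, and both EV libraries exceeded both controls for 7 members, as they did for 25.6% of all genes.

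In CD8 T cells 2 members were called, Igtp and Gbp7, and both rose; 2.2% of 12284 genes were called, 1.34% as higher in EV. Igtp measured 41.8 and 45.2 CPM in controls and 59.3 and 62.8 CPM in EV libraries (log2 difference 0.49 ± 0.09, edgeR adjusted p = 0.016). Gbp7 measured 52.9 and 54.1 CPM in controls and 66.0 and 72.6 CPM in EV libraries (0.37 ± 0.08, edgeR adjusted p = 0.044). For both genes the groups were clearly apart. With cells thinned to 1000 UMIs the Igtp difference was 0.27 ± 0.18 (edgeR adjusted p = 0.62). That of Gbp7 was 0.12 ± 0.17 (edgeR adjusted p = 0.87), so neither was called at equal depth. With no upper limits and a mitochondrial limit of 5%, Gbp7 differed by 0.30 ± 0.09 (edgeR adjusted p = 0.13). The Igtp call was lost without Control 1 (edgeR adjusted p = 0.12, range over alternatives 1.9e-07 to 0.62), and the Gbp7 call without Control 1 (0.29), without Control 2 (0.14) and with DESeq2 (0.12), in a range of 1.1e-05 to 0.87. Without EV 1, 5 members were called, among them Gbp2 (0.0012), Gbp4 (0.043) and Gbp6 (0.010), in a fit that called 16.9% of all genes.

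The other CD8 values were Gbp5 with 14.3 and 14.99 CPM against 19.0 and 18.4 (log2 difference 0.35 ± 0.12, edgeR adjusted p = 0.15), Gbp6 with 19.4 and 18.1 against 21.2 and 24.7 (0.30 ± 0.12, adjusted p = 0.21) and Gbp2 with 28.3 and 30.3 against 33.1 and 38.7 (0.30 ± 0.10, adjusted p = 0.16). None of these overlapped between groups. Irgm1, the gene called in B cells, stood at 39.9 and 39.1 against 41.1 and 42.3 CPM (0.08 ± 0.09). Whether this difference departs from that in B cells was not tested. The differences of Gbp3, Gbp8, Gbp9 and Gbp4 were 0.25, 0.16, 0.15 and 0.14. An unadjusted p below 0.05 was reached by 5 members (18.2% of all genes). Both EV libraries exceeded both controls for 9 of 10 members, against 24.4% of all genes, and the median log2 difference was 0.27, against 0.00 over all genes.

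In CD4 T cells none of the 10 members was called by edgeR, where 1.09% of 11933 genes were called (0.788% higher in EV). DESeq2 also called 0, with 1.32% of all genes called. In the edgeR fit 4 members had an unadjusted p below 0.05, against 16.7% of all genes. Igtp came closest, at 42.0 and 46.1 CPM in controls and 59.3 and 58.8 CPM in EV libraries (log2 difference 0.42 ± 0.10, edgeR adjusted p = 0.070), with all EV values above all control values. Gbp5 measured 11.98 and 13.2 CPM against 19.6 and 16.3 (0.50 ± 0.15, adjusted p = 0.14) and Gbp2 20.5 and 24.0 CPM against 30.1 and 28.9 (0.40 ± 0.12, adjusted p = 0.14). Gbp3 was the only member with a negative difference (4.77 and 6.27 against 4.45 and 5.04 CPM, -0.22 ± 0.26), and its groups overlapped. Irgm1 illustrates how much a single library weighs, with 36.0 and 36.5 CPM in controls, 51.5 in EV 1 and 37.6 in EV 2. Gbp7 differed by 0.27 (adjusted p = 0.22), and the differences of Gbp4, Gbp6, Gbp9 and Gbp8 were 0.13, 0.11, 0.09 and 0.05. Both EV libraries exceeded both controls for 7 members, against 24.2% of all genes, and the median log2 difference was 0.20, against 0.00 over all genes. Without EV 1, 3 members were called (Igtp 0.00058, Gbp7 0.010, Gbp2 0.023), and without EV 2, 4 were (Irgm1 0.00015, Igtp 0.0015, Gbp5 0.0069, Gbp2 0.022), again with a lone EV library. These fits called 16.5% and 6.87% of all genes.

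**Figure D3:**
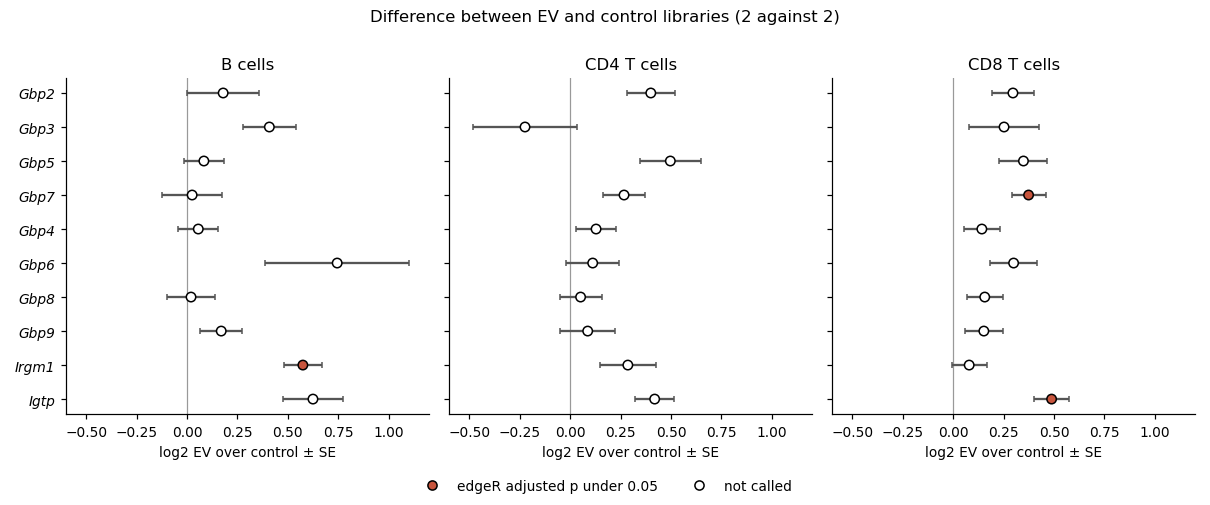
Log2 difference between EV and control libraries, with standard error, for each GTPase gene in B cells, CD4 T cells and CD8 T cells (2 libraries against 2). Filled points passed an edgeR adjusted p of 0.05. Irgm1 is filled in B cells, Gbp7 and Igtp in CD8 T cells, and Gbp3 in CD4 T cells is the only point below 0.

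In macrophages 5 of the 10 members had enough UMIs to be tested and none was called by edgeR, nor by DESeq2; 0.0286% of 3497 genes were called, and 1 member had an unadjusted p below 0.05 (9.06% of all genes). For none of the 5 tested members were both EV libraries above both controls (21.3% of all genes). The member with the small p was Gbp5, with 4 and 12 UMIs (59.6 and 70.7 CPM) in controls against 5 and 5 UMIs (18.1 and 22.3 CPM) after EV treatment. Both EV libraries lay below both controls (log2 difference -1.70 ± 0.67, edgeR adjusted p = 0.48), as for 19.9% of all genes. Gbp2 had 6 and 31 UMIs against 28 and 11, Gbp3 had 8 and 14 against 16 and 24, Gbp7 had 13 and 13 against 28 and 25, and Gbp8 had 9 and 8 against 13 and 15. In all, the gate held 70039 and 176991 UMIs in controls against 269393 and 211354 in EV libraries. Relative to these totals the log2 differences of Gbp2, Gbp3, Gbp7 and Gbp8 were -0.95, -0.23, -0.15 and -0.44. The groups overlapped in CPM for these 4 genes. Over the 5 tested members the median log2 difference was -0.44, against -0.003 over all genes. Gbp4, Gbp6, Gbp9, Irgm1 and Igtp did not pass the filter on low counts. Of these, Irgm1 had 2 and 6 UMIs in controls against 12 and 12 in EV libraries. Both EV libraries lay above both controls (29.8 and 35.3 against 43.4 and 53.6 CPM). Mean CPM rose from 10.4 to 13.9 for Gbp4, 23.7 to 24.8 for Gbp9 and 8.83 to 11.7 for Igtp. It fell from 7.46 to 4.04 for Gbp6, and the groups of these genes overlapped. Without the filter all 10 members were tested and edgeR called none, with 1 at an unadjusted p below 0.05 (5.72% of all genes). The share of B cell markers in this gate was also higher in the EV libraries, and its part in these values was not tested. Plasmacytoid dendritic cell, NK cell and monocyte markers were highest in Control 2, and their part was not tested either.

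Whether the EV difference itself varied between cell types was tested as an interaction in the pairs named below. B against CD8 T cells was not among these pairs. The Irgm1 differences of 0.57 ± 0.10 in B cells and 0.08 ± 0.09 in CD8 T cells were therefore not compared by a test. No member was called by edgeR for B against CD4 T cells (1.79% of all genes called), CD8 against CD4 T cells (0.377%), macrophages against CD4 T cells (0.111%) or macrophages against B cells (0.172%); 3, 0, 2 and 1 members had an unadjusted p below 0.05, as had 11.4%, 8.09%, 5.01% and 5.02% of all genes. The Irgm1 difference was 0.27 ± 0.12 larger in B than in CD4 T cells on the log2 scale (edgeR adjusted p = 0.43) and that of Gbp3 0.59 ± 0.23 larger (adjusted p = 0.32), whereas that of Gbp5 was smaller in B cells (-0.43 ± 0.15, adjusted p = 0.22). The Igtp difference in CD8 T cells, called there but not in CD4 T cells, exceeded that in CD4 T cells by 0.07 ± 0.09 (adjusted p = 0.90).

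The GTPases were also set beside cells in which an interferon response could be read from other genes. Interferon-responding cells were defined by at least 2 UMIs of Ifit1, Ifit3, Isg15 and Rsad2 together, none of which is a member. They made up 0.796% and 1.52% of B cells in controls against 4.42% and 4.14% in EV libraries, 4.63% and 6.10% against 12.6% and 10.1% of CD4 T cells, and 4.64% and 9.03% against 13.1% and 11.9% of CD8 T cells. With each cell thinned to 1000 UMIs the shares were 0.166% and 0.120% against 0.865% and 0.885% for B cells, 0.578% and 0.678% against 1.95% and 1.89% for CD4 T cells and 0.416% and 0.752% against 1.496% and 3.03% for CD8 T cells. The EV libraries had the higher share in all 3 cell types at either depth. Many cells lay near the threshold: 184 of the 455 such B cells had exactly 2 UMIs, and another 747 B cells had 1.

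Summed over the 10 members, interferon-responding B cells held 321 and 459 CPM (raw UMIs of the members relative to all UMIs of those cells) in controls and 481 and 467 in EV libraries, and other B cells 136, 138, 150 and 145. The corresponding values in CD4 T cells were 832, 582, 711 and 812 against 288, 305, 324 and 304, and in CD8 T cells 615, 564, 737 and 957 against 337, 333, 342 and 359 CPM. The GTPase level was therefore higher in the responding cells of every library. All 10 members were higher in the responding CD4 T cells of every library, 9 of 10 in CD8 T cells (not Gbp5) and 6 of 10 in B cells. The share of all genes that were higher in this way was not computed, so the counts show nothing particular to the members. In the 24 responding B cells of Control 1, Gbp2 and Gbp3 had 0 UMIs and Gbp4 and Gbp5 had 2 each. Gbp6 showed the widest ratios, from 5.13 to 14.0 in B cells, 2.52 to 6.33 in CD4 T cells and 2.81 to 5.49 in CD8 T cells. Its control values in B cells rest on 1 UMI in the responding cells of Control 1 and 1 in those of Control 2. Irgm1 in B cells ranged from 4.49 to 6.03.

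The responding cells also held a larger share of the GTPase molecules in EV libraries. It amounted to 2.07% and 5.55% of the members' UMIs in control B cells against 15.2% and 13.3% in EV B cells, 12.5% and 12.2% against 26.8% and 24.9% in CD4 T cells, and 8.41% and 14.99% against 25.7% and 27.6% in CD8 T cells. When the responding cells were left out before summing, no member was called by edgeR in any cell type, and an unadjusted p below 0.05 was left for 3 members each in B and CD4 T cells, 1 in CD8 T cells and 2 in macrophages, as for 18.3%, 15.5%, 17.4% and 8.59% of all genes. Of all genes 1.34%, 0.972%, 1.21% and 0% were called in this setting. The log2 difference of Irgm1 in B cells was then 0.42 (edgeR adjusted p = 0.065, range over alternatives 2.0e-06 to 0.14), that of Igtp in CD8 T cells 0.33 (adjusted p = 0.095) and that of Gbp7 in CD8 T cells 0.15 (adjusted p = 0.37).

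**Figure D4:**
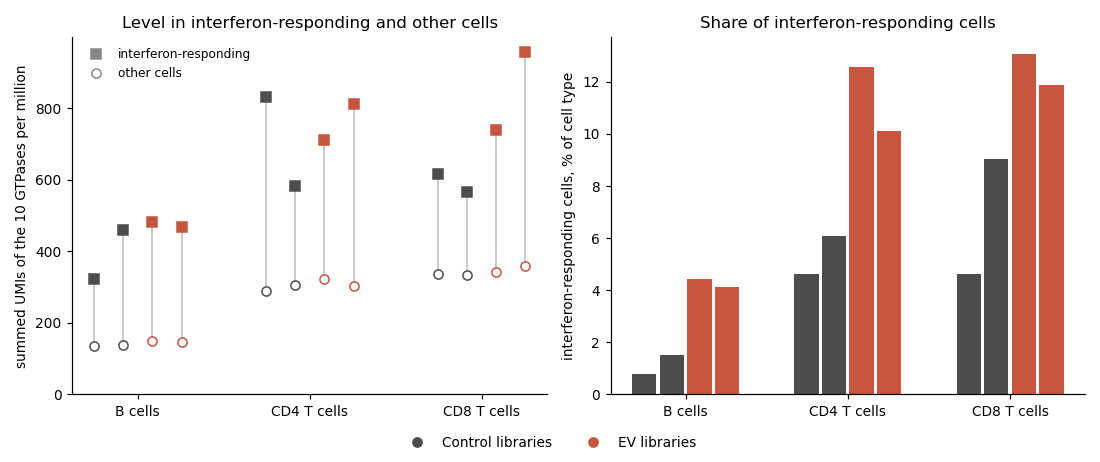
Left, summed level of the 10 GTPase genes in CPM in interferon-responding cells (filled squares) and other cells (open circles) of each library, joined by a line. Right, interferon-responding cells as a percentage of each cell type, 1 bar per library. Grey is control and red is EV; the squares lie above the circles in all 12 pairs, and the EV bars are higher than the control bars in each cell type.

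Genes around the GTPases in the same pathways were read from 5 lists, whose counts stand against 2.55%, 1.09% and 2.2% of all genes called in B, CD4 T and CD8 T cells, and 18.9%, 16.7% and 18.2% at an unadjusted p below 0.05. Among type I interferon readout genes, 9 of 10 rose in B cells, 4 of 10 in CD4 T cells and 5 of 10 in CD8 T cells, with median log2 differences of 1.33, 0.79 and 0.98 over the lists. In B cells Ifit3, a partner of the RNA-binding Ifit1, went from 4.94 and 6.40 CPM to 17.4 and 18.7 (log2 difference 1.67 ± 0.15), and the ubiquitin-like modifier Isg15 from 5.87 and 7.58 to 23.2 and 17.1 (1.59 ± 0.19). In CD4 T cells Isg15 went from 19.4 and 28.3 CPM to 64.9 and 49.3 (1.24 ± 0.17), and in CD8 T cells from 19.9 and 28.1 to 43.2 and 59.4 (1.09 ± 0.16). Ifit1, Ifit3, Isg15 and Rsad2 also defined the responding cells above.

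Of the other interferon-inducible GTPases, 9 of 12 listed genes were followed and 5, 9 and 7 were tested in B, CD4 T and CD8 T cells. Ifi47, an IRG-family gene, rose in all 3, from 29.5 and 30.5 CPM to 49.4 and 53.3 in B cells (log2 difference 0.78 ± 0.09), from 99.5 and 92.9 to 143 and 140 in CD4 T cells (0.56 ± 0.09) and from 112 and 104 to 163 and 178 in CD8 T cells (0.66 ± 0.08). Gvin1, a very large interferon-inducible GTPase, rose in B cells (1.06 ± 0.13) and CD8 T cells (0.69 ± 0.10). No gene of this list was called lower. Iigp1, an effector IRG, measured 1.65 and 1.10 CPM in control B cells and 0.49 and 0.50 in EV B cells (log2 difference -1.47 ± 0.41, edgeR adjusted p = 0.11). The median log2 difference of the list was 0.75 in B cells, 0.04 in CD4 T cells and 0.22 in CD8 T cells.

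Upstream, 6 of 19 tested receptors, kinases and transcription factors of the interferon pathways were called higher in B cells, 1 of 19 in CD4 T cells and 5 of 20 in CD8 T cells. None was called lower. The median log2 differences of the list were 0.21, 0.24 and 0.20 in these cell types. An unadjusted edgeR p below 0.05 was reached by 9, 8 and 9 of its genes. In B cells Irf7, the transcription factor that amplifies type I interferon, rose by 1.33 ± 0.12 on the log2 scale, and the feedback inhibitors Socs1 and Usp18 by 1.48 ± 0.14 and 1.24 ± 0.14. Socs1, which blocks JAK kinases, was the gene called in CD4 T cells (1.09 ± 0.21, with 29.6 and 30.2 CPM in controls, 82.7 in EV 1 and 45.8 in EV 2). In CD8 T cells Usp18 (0.82 ± 0.11), Socs1 (1.01 ± 0.15), Irf7 (0.62 ± 0.10) and the interferon-γ receptor chain Ifngr1 (0.72 ± 0.14) were among the calls.

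Downstream, a list covered the autophagy conjugation machinery, which helps to place GBPs and IRGs on target membranes, and also held Sqstm1 and Ube2l6. Of its genes, edgeR called 0 of 12 in B cells, 0 of 12 in CD4 T cells and 0 of 11 tested in CD8 T cells. An unadjusted edgeR p below 0.05 was reached by 2, 1 and 5 of them. Of the inflammasome list, 1 of 8 tested genes was called in B cells, Il1b, at 0.501 and 0.0736 CPM in controls and 4.55 and 1.94 CPM in EV libraries; it encodes the cytokine precursor that inflammasomes cleave and is mainly a product of myeloid cells. Summed neutrophil markers in the B cell gate stood at 0.44 and 0.15 CPM in controls against 3.79 and 8.66 in EV libraries, and their part in the Il1b value was not tested. None of 7 was called in CD4 T cells and none of 6 in CD8 T cells by edgeR, with 0 at an unadjusted p below 0.05 in either. In macrophages none of the type I readout genes could be tested and no gene of the other lists was called by edgeR, while 1 gene, in the list of receptors, kinases and transcription factors, had an unadjusted p below 0.05.

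The 5 genes whose profile over the 16 sums of library and cell type was most like that of the summed GTPases, among 960 genes with at least 10 UMIs in each sum, were Rexo2 (Pearson's r 0.986), Psme2 (0.983), Npc2 (0.978), Cox7a2l (0.974) and Eif4a1 (0.970). Psme2 encodes a subunit of the interferon-inducible proteasome activator PA28. The sums share libraries, and the macrophage sums stand far from the others. By rank correlation Eif4a1 came first (0.982) and Psme2 ranked 17 (0.947), so these values describe the ordering of cell types and are no measure of EV response.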

How the data were processed

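Draining lymph node cells of 2 control and 2 EV-treated replicates were profiled with the 10x 3′ v3.1 kit, 1 library each. The authors aligned reads to mm10 with Cell Ranger 7.1.0 and deposited raw UMI counts per gene and barcode, without normalization and before their cell filters; the annotation release is not given in the sources used here. The members and lists were chosen with earlier results of these data known. Named pathway genes were the called members of 5 lists, at most the 4 with the smallest adjusted p per cell type and list, and the 5 genes most like the summed members; a gene named otherwise was chosen after its values were seen. One gene that this rule names is not reported here.

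Barcodes passed with 200 to 5000 detected genes, no more than 20000 UMIs and a mitochondrial share under 10%. Gates were Cd79a without Cd3e (B cells), Cd3e with Cd4 or Cd8a alone and no Cd79a (T cells), and at least 2 UMIs of C1qa and C1qb without Cd3e (macrophages). Doublets were kept in the main setting. Counts were summed per library and gate. The sums were tested with edgeR 4.0.16 (R 4.3.3, limma 3.58.1; quasi-likelihood, TMM, filterByExpr, Benjamini-Hochberg over all genes, adjusted p under 0.05, two-sided); scripts were tested on simulated data. Interactions and levels used library as a block. Exact permutation of 2 against 2 cannot go below p = 0.33. Deposited counts sum to between 50749656 and 70418672 UMIs per library; intervals between replicates rest on 2 libraries. DESeq2 1.42.0 (rounding not needed), other cell settings (scanpy 1.11.5 for Scrublet, expected rate 6%), a replicate block and leaving out each library were alternatives. Gene positions are from GENCODE M21 (GRCm38), where 32235 of 32285 gene IDs were found, and promoters from RefSeq.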

Additional observations from a re-analysis of the deposited data

How the results depend on the processing

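Of 16 alternatives to the tests of EV against control, no upward or downward call of a member changed direction. In B cells 2.55% of all genes were called in the main setting, 6.44% without the low-count filter and 8.91% with the replicate block. The share was 3.38% after thinning and 1.34% without interferon-responding cells. In CD4 T cells it was 1.09%, 3.89% without the filter and 6.6% with the block. In CD8 T cells it was 2.2%, 8.29% with the block, 1.34% with DESeq2 and 0.965% without upper limits. Thinning gave 1.55% there and leaving out interferon-responding cells 1.21%. The number of members called in B cells (1) was 3 without a filter on low counts, 2 with a replicate block, 0 with cells thinned to 1000 UMIs and 0 without interferon-responding cells, and 0 to 3 when single libraries were left out. In CD4 T cells (0) it was 2 without the filter, 3 with the block and 0 to 4 without single libraries. In CD8 T cells (2) it was 1 with DESeq2, 1 with no upper limits and a mitochondrial limit of 5%, 0 after thinning, 0 without interferon-responding cells and 0 to 5 without single libraries; the block gave 3. The levels of CD4 against CD8 T cells called 4 members after thinning (8), and those of CD4 T cells against macrophages 4 after thinning, 4 with stricter gates and 4 to 6 without single libraries (7). Of all genes, the levels of CD4 against CD8 T cells called 40.9% in the main setting and 18.8% after thinning. Those of CD4 T cells against macrophages called 34.9%, 29.4% after thinning, 28.1% with stricter gates and 21.4% to 31.2% without single libraries. Thinning leaves fewer molecules, and after it no member could be tested in macrophages.

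Differences that changed sign were not called in either setting. In B cells Gbp7 was -0.12 after thinning, -0.024 without upper limits and -0.15 without interferon-responding cells. It was -0.029 without cells that held any UMI of C1qa or C1qb, and -0.13 to 0.16 without single libraries. Gbp8 was -0.031 without upper limits, -0.078 without interferon-responding cells and -0.039 to 0.088 without single libraries, and Gbp4 -0.11 without interferon-responding cells. In CD4 T cells thinning gave -0.12 for Gbp4 and -0.033 for Gbp6, and leaving out interferon-responding cells gave -0.094 for Gbp8, -0.068 for Gbp9 and -0.28 for Gbp6. Gbp8 was -0.032 without upper limits and -0.054 with stricter gates. Single libraries moved Gbp8 from -0.054 to 0.17, Gbp9 from -0.041 to 0.26 and Gbp3 from -0.40 to 0.0018. In CD8 T cells Gbp8 was -0.016 after thinning, and Gbp9 was -0.045, Gbp6 -0.062 and Irgm1 -0.060 without interferon-responding cells. In macrophages Gbp7 was 0.43 without upper limits and 0.019 with stricter gates, Gbp3 0.40 with stricter gates and 0.085 without shared cells, and single libraries moved Gbp7 from -0.87 to 0.46, Gbp8 from -1.24 to 0.24 and Gbp3 from -0.71 to 0.17. The cause was not tested.

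Whether the replicate numbers pair the libraries could not be told. Correlations of deviations were 0.02 to 0.14 over the cell types, and with 2 libraries per group both pairs give the same value. With the block as a replicate term 1182 genes were called for B cells, 788 for CD4 T cells, 1018 for CD8 T cells and 57 for macrophages, against 338, 130, 270 and 1. After thinning, the levels called 5536 genes for B against CD4 T cells (9355), 5778 for B against CD8 T cells (9886) and 1717 for CD4 against CD8 T cells (5203), and against macrophages 2159 for B cells (3524), 2247 for CD4 T cells (4077) and 2209 for CD8 T cells (3970). The interaction counts were 83 (242) for B against CD4 T cells and 3 (48) for CD8 against CD4 T cells. Without the filter the counts were 1392, 773, 857 and 65, and without interferon-responding cells 177, 115, 146 and 0. No upper limits gave 688 for B cells and 120 for CD8 T cells, thinning 55 for CD4 and 136 for CD8 T cells, stricter gates 266 for CD4 T cells, and DESeq2 165 for CD8 T cells and 6 for macrophages. Leaving out single libraries gave 97 to 2580, 94 to 2079, 187 to 2166 and 22 to 87.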
